A study of Bos taurus with 14 samples.

Results

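DHCR7 and SQLE encode enzymes of the sterol part of cholesterol synthesis, and they are 2 of the 24616 genes in a count table from bovine endometrial explants. They were chosen by their higher counts with sPIF than in the Control explants of the same cows, so the values of that contrast are given as a description, with no test. Both passed a filter of 10 or more counts in each library, which left 13233 genes to test. DHCR7 is listed as ENSBTAG00000016465 and SQLE as ENSBTAG00000005498.

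The explants came from intercaruncular endometrium of 7 heifers, staged by the look of the ovary as having a regressing corpus luteum. Each cow gave 1 Control and 1 sPIF explant. Synthetic preimplantation factor (sPIF), a copy of a peptide that embryos secrete, was given at 100 nM for 30 h with 1 change of medium, and the Control wells received the same amount of its solvent, DMSO, without the peptide. Cows 1 to 4 were sequenced on lane 1 and cows 5 to 7 on lane 2, whose libraries were run 2 times and their counts added. By serum progesterone, cows 2 to 5 formed the high group, above 1 ng/mL, and cows 1, 6 and 7 the low group. The paper states that some samples had more progesterone than expected, which it reads as a sign of the luteal phase. The cows may therefore not share 1 stage of the cycle. The total count per library was between 15885642 and 25771250 in the Control group and between 16377453 and 28625724 in the sPIF group, and was higher for the sPIF explant in 5 of 7 cows, the exceptions being cows 2 and 3.

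Cells make cholesterol from acetyl units through mevalonate and squalene. SQLE, squalene epoxidase, adds oxygen to squalene and opens the sterol part of the pathway as one of its rate-limiting enzymes, whereas DHCR7, 7-dehydrocholesterol reductase, carries out a last step that turns 7-dehydrocholesterol into cholesterol. Genes of the pathway are known to be switched on together when membrane sterol is low, and in the endometrium cholesterol serves membranes and is a precursor of steroids.

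In the Control explants of lane 1, the DHCR7 level was 55.9, 56.4, 33.0 and 43.5 CPM (the gene's count relative to library size, after TMM normalization) in cows 1 to 4. In the Control explants of lane 2 it was 42.8, 61.9 and 93.7 CPM in cows 5 to 7. Cow 7 had the highest Control level and cow 3 the lowest, and the ranges of both lanes overlapped. In the sPIF explants the DHCR7 level was 71.7, 65.9, 49.0 and 46.9 CPM in cows 1 to 4, and 61.1, 103 and 146 CPM in cows 5 to 7. The sPIF explants of cows 6 and 7 stood above the other 12 libraries, of which the Control explant of cow 7 was the highest. The mean was 55.3 ± 19.7 CPM (SD, n = 7) in the Control group and 77.6 ± 35.4 CPM (SD, n = 7) in the sPIF group. The groups overlapped widely, since cows differed more from each other than the explants of a cow did.

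The SQLE level in the Control explants of lane 1 was 119, 124, 90.1 and 128 CPM in cows 1 to 4. In the Control explants of lane 2 it was 77.7, 73.9 and 98.7 CPM in cows 5 to 7. Only cow 3 of lane 1 lay within the range of lane 2. In the sPIF explants the SQLE level was 163, 162, 120.5 and 129 CPM in cows 1 to 4, and 97.3, 86.2 and 129 CPM in cows 5 to 7. The order of the cows thus differed from that for DHCR7, since cow 6 was next to the highest for DHCR7 and the lowest for SQLE in both explants. The mean SQLE level was 102 ± 22.2 CPM (SD, n = 7) in the Control group and 127 ± 29.1 CPM (SD, n = 7) in the sPIF group. In tissue pieces such as these, fewer cells of a type and less RNA per cell cannot be told apart.

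**Figure D1:**
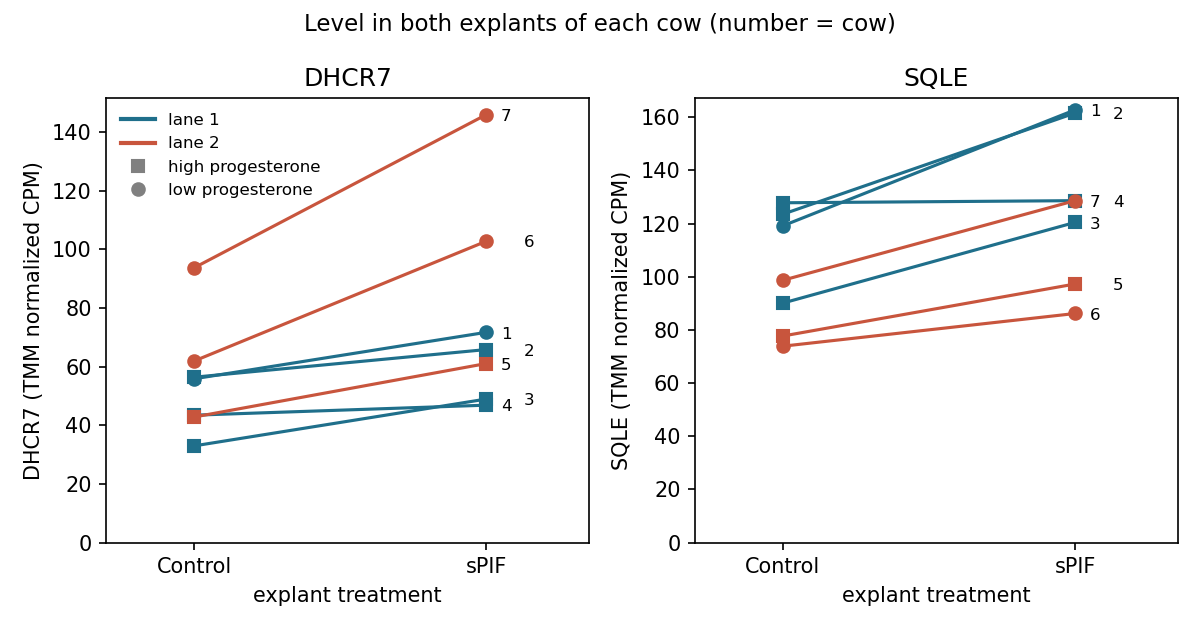
Level of DHCR7 (left) and SQLE (right) in TMM normalized CPM, where each line joins the Control and the sPIF explant of 1 cow, its colour gives the lane and its marker the progesterone group. For DHCR7 the lines of cows 6 and 7 end highest, at 103 and 146 CPM, while for SQLE the highest lines are those of cows 1 and 2, at 163 and 162 CPM with sPIF.

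These levels rest on many reads. The DHCR7 count was between 730 and 3352 in the 14 libraries and the SQLE count between 1330 and 3406, so that counting error was at most 3.70% of a DHCR7 value and 2.74% of an SQLE value. Variation between explants beyond counting error, as the biological coefficient of variation in the model with cow as a block, was 13.6% for DHCR7 and 12.2% for SQLE, against a median of 17.2% over the genes tested. Choosing genes by the paired contrast favours a low value of this measure, so nothing is read from it. Of the sum of squares of log2 CPM, cow accounted for 79.3% in DHCR7 and 75.3% in SQLE, near the median of 75.6% over the genes tested.

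Within cows, the log2 difference of sPIF minus Control in DHCR7 was 0.36, 0.22, 0.57 and 0.11 in cows 1 to 4, and 0.51, 0.73 and 0.64 in cows 5 to 7. The differences of the lane 2 cows lay in the upper part of the range, where cow 3 of lane 1 also lay. In SQLE the difference was 0.45, 0.39, 0.42 and 0.01 in cows 1 to 4, and 0.32, 0.22 and 0.38 in cows 5 to 7. Cow 4 had the smallest difference in both genes, and its SQLE difference was below its counting SE of 0.040 with TMM normalization but above it, at 0.07, when counts were divided by the library total, a scaling added after the values had been seen. Both genes were higher with sPIF in 7 of 7 cows, as were 1.33% of the genes tested, and nothing is read from this because the contrast chose the genes.

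**Figure D2:**
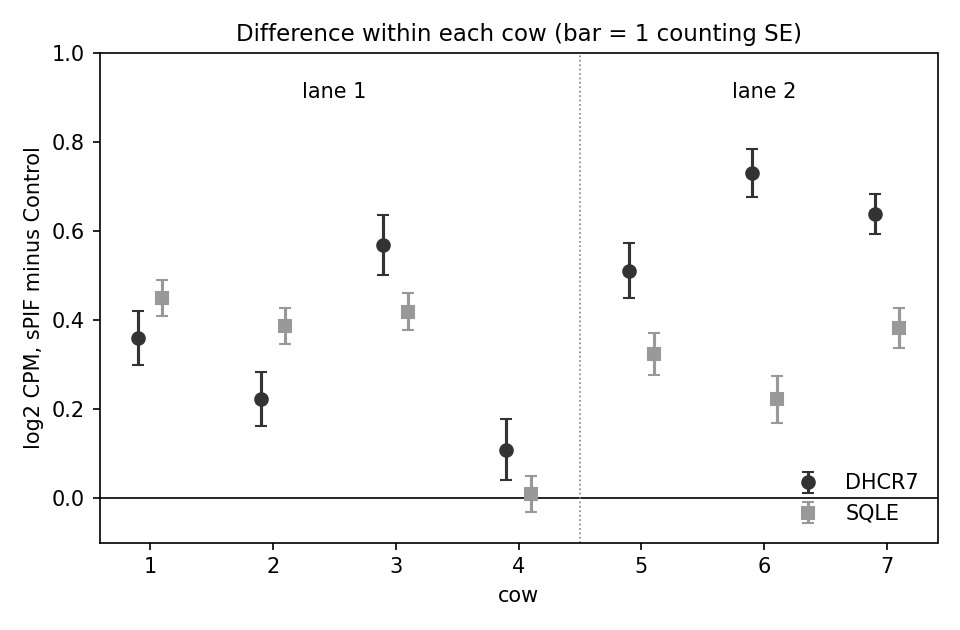
Log2 CPM of the sPIF explant minus that of the Control explant in each cow, for DHCR7 (circles) and SQLE (squares), with bars of 1 SE from counting error alone. With TMM normalization the 14 differences lie above 0, but that of SQLE in cow 4, at 0.01, lies within its bar of 0; divided by the library total it was 0.07.

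The fitted log2 fold change with sPIF was 0.45 with an SE of 0.088 for DHCR7 and 0.31 with an SE of 0.073 for SQLE. Of the 13233 genes tested, 330 had a larger fold change than DHCR7 and 835 a larger one than SQLE. At an adjusted p below 0.1, edgeR's quasi-likelihood test called 0 of the 13233 genes (0%), with 1061 genes at an unadjusted p under 0.05, whereas DESeq2 called 100 genes, 0.756% of those tested and 22 of them higher with sPIF. The study chose DHCR7 and SQLE at this threshold on the same libraries, so nothing is read from their place in it. On the DESeq2 scale, the complement gene C3, with a log2 fold change of 0.56, was the last of the higher genes inside that threshold. The next gene outside it, which has no symbol here, had a log2 fold change of 0.30, close to the 0.31 of SQLE.

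Whether the response differed between lanes was also fitted. This rests on the within-cow differences that chose the genes, and that choice favours differences that are alike across cows. Nothing is therefore read from its outcome for DHCR7 and SQLE. In DHCR7 the fold change was 0.32 on the log2 scale in lane 1 alone and 0.64 in lane 2 alone, and in SQLE it was 0.32 in both. The DHCR7 difference between lanes was 0.31 with an SE of 0.15 and did not pass the test (edgeR adjusted p = 0.456, range 0.456 to 0.785 over its alternatives). For SQLE it was -0.01 with an SE of 0.15 (edgeR adjusted p = 0.989). The edgeR test of this interaction called 0 genes (0%), with 1516 genes at an unadjusted p under 0.05, and DESeq2 called 175, neither DHCR7 nor SQLE among them.

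The response was also set against the progesterone group of the cow. This comparison, too, rests on the within-cow differences that chose the genes, so nothing is read from its outcome for DHCR7 and SQLE. The DHCR7 differences were 0.36, 0.73 and 0.64 in the low group and 0.22, 0.57, 0.11 and 0.51 in the high group, so the groups overlapped. The difference between groups, high minus low, was -0.22 with an SE of 0.17 for DHCR7 and -0.07 with an SE of 0.16 for SQLE, and neither passed the test (edgeR adjusted p = 1.00 for both). The DHCR7 value depended on single cows, at -0.34 without cow 1, -0.14 without cow 4 and -0.15 without cow 6. The test called 0 genes (0%) in edgeR, with 187 at an unadjusted p under 0.05, and 0 in DESeq2.

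The levels themselves, with the counts of both explants summed for each cow, were tested between lanes. Genes were chosen by the difference within cows and not by these sums, but the sums include the sPIF counts used in that choice. DHCR7 was higher in lane 2 and SQLE was lower there. Taking the mean CPM of both explants, the DHCR7 level was 63.8, 61.1, 41.0 and 45.2 in cows 1 to 4 and 52.0, 82.4 and 119.9 in cows 5 to 7. The SQLE level was 141, 143, 105 and 128 CPM in cows 1 to 4 and 87.5, 80.0 and 114 CPM in cows 5 to 7. In each gene 1 or more cows of a lane lay within the range of the other lane, so the lanes overlapped in 2 of 2 genes, while they did not overlap in 39.7% of the genes tested.

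The log2 difference of lane 2 minus lane 1 was 0.72 with an SE of 0.28 for DHCR7 (edgeR adjusted p = 0.0848) and -0.45 with an SE of 0.16 for SQLE (edgeR adjusted p = 0.0738). Both genes passed the threshold of 0.1, as did 39.6% of the genes tested, so that a lane difference was common in these data. An exact permutation test with all 35 ways to split the cows into 4 and 3, whose smallest p is 0.0286, gave p = 0.143 for DHCR7 and p = 0.0857 for SQLE (two-sided). Neither call held when each cow was left out in turn. That of DHCR7 was lost without cow 2, 3, 4, 6 or 7, with edgeR adjusted p = 0.114, 0.163, 0.167, 0.149 and 0.302, and that of SQLE without cow 1, 2, 4, 5 or 6, with adjusted p = 0.147, 0.149, 0.110, 0.184 and 0.216. The DHCR7 difference itself was 0.38 without cow 7, and 0.78, 0.60, 0.65 and 0.75 without cow 2, 3, 4 or 6, so that its size depended most on cow 7 among these. The SQLE difference was -0.40, -0.41, -0.45, -0.41 and -0.34 without cow 1, 2, 4, 5 or 6, against -0.45 with all cows. With progesterone group in the same model the DHCR7 difference was 0.40 (adjusted p = 0.267) and in the Control explants alone 0.47 (adjusted p = 0.260), while in the sPIF explants alone it was 0.82 and passed (adjusted p = 0.0606). SQLE passed in these 3 fits, at -0.51 (adjusted p = 0.0879), -0.48 (adjusted p = 0.0764) and -0.46 (adjusted p = 0.0894). No cow was sequenced on both lanes, so lane and cow cannot be told apart.

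Since the lane differences had opposite signs, though neither call held without single cows, the ratio of both genes was also taken within libraries, which needs no normalization. This measure was added after the values had been seen and has no test, and it is not corrected for gene length, so it does not say which RNA was more abundant. The DHCR7 to SQLE ratio of counts was 0.469, 0.457, 0.366 and 0.340 in the Control explants of cows 1 to 4 and 0.551, 0.838 and 0.950 in those of cows 5 to 7. With sPIF it was 0.441, 0.408, 0.407 and 0.365 in cows 1 to 4 and 0.628, 1.19 and 1.14 in cows 5 to 7. The 8 libraries of lane 1 thus lay below the 6 libraries of lane 2 without overlap. These libraries come from only 7 cows, 39.7% of single genes also separated the lanes by cow means, and no such share was computed for ratios of other genes. Cow 5, of the high progesterone group, was the lane 2 cow nearest to lane 1. Within cows the ratio was higher with sPIF in the 3 cows of lane 2, by 0.19, 0.51 and 0.26 on the log2 scale, and in cows 3 and 4 of lane 1, and lower in cows 1 and 2.

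**Figure D3:**
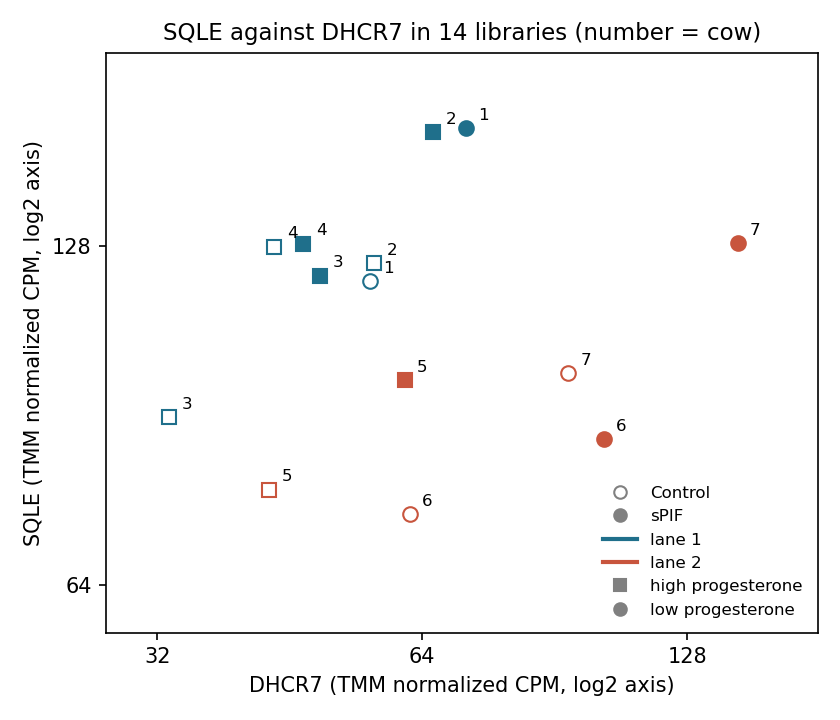
SQLE against DHCR7 level in TMM normalized CPM on log2 axes, where each point is 1 library, its colour gives the lane, its shape the progesterone group, and open and filled points are Control and sPIF explants. The lanes overlap along each axis and are separated by the ratio, with DHCR7 to SQLE ratios of counts of 0.551 to 1.19 in lane 2 against 0.340 to 0.469 in lane 1.

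Whether cows with more DHCR7 RNA also had more SQLE RNA was tested in the Control explants, pooled over lanes as planned and, added after the values had been seen, within lanes. Pooled over the 7 cows Pearson's r of log2 CPM was 0.049 (exact two-sided permutation p = 0.915) and Spearman's rho was 0 (exact permutation p = 1). Pooled over lanes no relation was detected, and without cows 3 and 7, the farthest from the median of DHCR7, r was -0.098 (exact permutation p = 0.85). Centred within lanes and permuted within them alone, r was 0.77 (exact permutation p = 0.0833) and Spearman's rho was 0.43 (exact permutation p = 0.528), where the smallest possible p was 0.00694. After Benjamini-Hochberg adjustment of Pearson's r over these 2 relations, the exact permutation p was 0.915 pooled and 0.167 within lanes, so neither passed at 0.05, although r differed widely. As a description over the 14 libraries, which come in pairs from 7 cows, r between both genes was 0.13, and it was 0.36 over the within-cow differences. After centring within each lane and treatment, a scale also added later, r over the 14 libraries was 0.74. Centred within lane alone, r was 0.80, so the value depended on whether the lanes were centred. On the scale centred within lane and treatment, 311 of the other 13232 genes had a higher r with DHCR7 and 194 a higher r with SQLE.

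High and low progesterone cows were compared in the same way. The mean DHCR7 level of a cow was 61.1, 41.0, 45.2 and 52.0 CPM in the high group and 63.8, 82.4 and 119.9 CPM in the low group. The low group lay above the high group without overlap, with cow 1 just above cow 2, while the ranges did not overlap in 3.38% of the genes tested. In the Control explants alone cows 1 and 2 were in the other order, at 55.9 and 56.4 CPM, so that these groups overlapped, and in the sPIF explants alone they did not.

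The log2 difference of high minus low was -0.84 with an SE of 0.25 for DHCR7. It did not pass the test over all genes (edgeR adjusted p = 0.852, range 0.292 to 1.00 over its alternatives), while the exact permutation p over the 35 splits was 0.0286, the smallest they allow. Within lane 1 the only low cow, cow 1, had 63.8 CPM against 41.0 to 61.1 CPM, and within lane 2 the only high cow, cow 5, had 52.0 CPM against 82.4 and 119.9 CPM. With lane in the model the difference was -0.65 with an SE of 0.24, and it did not pass (edgeR adjusted p = 1.00). SQLE showed no such separation, with a difference of 0.04 and an SE of 0.24 (edgeR adjusted p = 0.964, exact permutation p = 0.771). The edgeR test of progesterone group called 0 of the 13233 genes (0%), with 458 at an unadjusted p under 0.05, and DESeq2 called 24, neither DHCR7 nor SQLE among them.

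Of 67 genes in 6 lists of sterol, fatty acid and steroid metabolism, 4 could be matched to rows of the table, because symbols came from the study's own list of genes that differed with sPIF. Besides DHCR7 and SQLE these were ERG28, listed as C14orf1, and CYP24A1. No count over the lists is therefore given, and ERG28 and CYP24A1 are no independent evidence of a direction with sPIF. ERG28 encodes a membrane protein that holds enzymes of sterol demethylation together, and CYP24A1 encodes the hydroxylase that inactivates vitamin D.

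ERG28 had a median of 13.7 CPM in the Control explants, from 7.98 to 24.8, and of 15.8 CPM in the sPIF explants, from 12.1 to 40.2, highest in cow 7 in both groups as DHCR7 was. It was higher in lane 2, by 0.84 on the log2 scale with an SE of 0.26 (edgeR adjusted p = 0.0434). This call was lost without cow 7, at 0.46 (edgeR adjusted p = 0.124), and with progesterone group in the model, at 0.63 (edgeR adjusted p = 0.150). CYP24A1 had a median of 6.18 CPM in the Control explants, from 2.33 to 11.2, and of 11.5 CPM in the sPIF explants, from 5.09 to 16.1. It was lower in lane 2, as SQLE was, by -1.19 on the log2 scale with an SE of 0.28 (edgeR adjusted p = 0.0162). In the Control explants alone the difference was -1.09 and the call was lost (edgeR adjusted p = 0.115). The exact permutation test between lanes gave p = 0.0286 for ERG28, the smallest possible, and p = 0.0571 for CYP24A1. Both genes had fewer reads than DHCR7 and SQLE. Their lowest counts were 155 for ERG28 and 42 for CYP24A1, with counting error of up to 8.03% and 15.4%. The cow means of the lanes did not overlap in ERG28 or in CYP24A1, which is common here, since 39.6% of the genes tested were called between lanes and 39.7% did not overlap.

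Likeness to DHCR7 and SQLE was measured as Pearson's r of log2 CPM over the 14 libraries, which share cows, lanes and treatments, and only 85 of the other 13232 genes have a symbol here. On this scale ERG28 had the highest r with DHCR7 of these, at 0.93, followed by SYT17 at 0.71, SLC5A5 at 0.69, LCN2 at 0.62 and ABLIM3 at 0.61. Among all 13232 genes ERG28 ranked 2, and 8 genes had an r above 0.9 with DHCR7. With SQLE the highest was CYP24A1, at 0.93 and also at rank 2, followed by AOX1 at 0.85, C3 at 0.77, SERPINA1 at 0.75 and NT5DC1 at 0.74, and 6 genes had an r above 0.9. With values centred within lane and treatment, which was added later, r was 0.88 for ERG28 with DHCR7, at rank 30, below SLC5A5 at 0.88 and rank 26 and close to LCN2 at 0.87 and ABLIM3 at 0.85. It was 0.78 for CYP24A1 with SQLE, at rank 98, and 0.75 for SERPINA1. Over the within-cow differences of 7 cows the order was another, with r with DHCR7 of 0.54 for ERG28, 0.73 for LCN2 and 0.69 for SYT17, and r with SQLE of -0.11 for CYP24A1 and 0.25 for SERPINA1. In the 7 Control explants alone, which leave out the contrast behind the symbols, r was 0.84 for ERG28 with DHCR7, at rank 104, and 0.97 for CYP24A1 with SQLE, at rank 6. Over all 14 libraries centred within lane alone, which keeps the treatment difference, r was 0.89 at rank 9 for ERG28 and 0.86 at rank 8 for CYP24A1. Of the 5 genes named for SQLE, CYP24A1 had the highest r on each of these scales except the within-cow differences. Of the 5 named for DHCR7, ERG28 did so except on the within-cow differences and the scale centred within lane and treatment. Each set of 5 was picked by r over these same 14 libraries. Other genes with a symbol were not compared on the other scales, so nothing is read from this order.

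The labelled tissue could not be checked against epithelial or stromal markers, since 1 of 29 marker genes, the smooth muscle gene CNN1, could be matched. CNN1 had a mean of 38.8 CPM in the cows of lane 1, from 23.8 to 67.5, and of 97.0 CPM in those of lane 2, from 70.6 to 138. The cow means of the lanes also did not overlap in 39.7% of the genes tested. In lane 2, of only 3 cows, the cow means of CNN1 and DHCR7 had the same order, both highest in cow 7. SQLE had another order there, with 80.0 CPM in cow 6 below 87.5 CPM in cow 5. In lane 1 the order of CNN1 and DHCR7 differed, since cow 1 had the lowest CNN1 mean, 23.8 CPM, and the highest DHCR7 mean, 63.8 CPM. CNN1 was lower with sPIF, with a median of 89.2 CPM in the Control and 45.9 CPM in the sPIF explants. It comes from the same list of genes that differed with sPIF. By the study's methods, the myometrium was cut away from the endometrium before culture. The part of muscle content in the levels of DHCR7 and SQLE was not tested.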

How the data were processed

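The authors trimmed paired-end reads with Trimmomatic 0.36.0, mapped them with Bowtie2 2.2.6 to the bovine assembly UMD3.1, counted them on Ensembl genes with featureCounts 1.4.6 and added both runs of each lane 2 library. Their deposited table gives raw counts, and all 14 columns were used. Lane and progesterone group come from the study's methods and results. Pairing comes from the animal. Deviations from group means correlated at 0.412 to 0.764 within cows (median 0.667). Between different cows they correlated at -0.559 to 0.543 (median -0.121), so the ranges overlapped.

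After a filter of 10 or more counts in each library, edgeR 4.0.16 in R 4.3.3 (TMM, quasi-likelihood, cow as a block, Benjamini-Hochberg adjustment, threshold 0.1) gave the main tests. Lane and progesterone group were tested on counts summed per cow. Alternatives used DESeq2 1.42.0 and limma 3.58.1. Log2 CPM had a prior count of 2.

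Named genes were DHCR7, SQLE, matched list genes, and for each the 5 most correlated genes with a symbol. Members and lists were chosen with earlier results of these data known. List medians, marker sums and promoter motifs were not run, for want of symbols and sequences.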

Additional observations from a re-analysis of the deposited data

How the results depend on the processing

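Over 16 alternatives the log2 fold change with sPIF was 0.32 to 0.64 for DHCR7, the extremes being each lane alone, and 0.29 to 0.36 for SQLE; one, division by the library total (0.45 and 0.32), was chosen after seeing the data. Without the pairing by cow (no block) the log2 fold change was 0.49 for DHCR7 and 0.32 for SQLE, and 0 genes were called. DESeq2 called 100 genes for sPIF, 175 for its interaction with lane and 24 for progesterone group, where edgeR called 0; the cause was not tested.

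The lane difference of DHCR7 was no longer past the threshold at 0.69 with a wider filter (at least 10 counts in 1 library, more genes tested; adjusted p = 0.110), at 0.40 with progesterone group in the model and at 0.47 in the Control explants. Leaving out 1 cow at a time gave 0.38 to 0.97 for DHCR7 and -0.60 to -0.34 for SQLE, and 0.46 to 1.05 for ERG28, on fewer samples. ERG28 lost its call at 0.63 with progesterone group in the model and CYP24A1 at -1.09 in the Control explants. In SQLE the progesterone difference of 0.04 changed sign to -0.16 with lane in the model and ranged from -0.16 to 0.25 without 1 cow; its interaction with lane ranged from -0.11 to 0.042 and with progesterone from -0.13 to 0.025. None of these SQLE values passed the threshold.

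The r of DHCR7 and SQLE over Control explants, 0.049, was -0.16 in the sPIF explants, -0.098 without the 2 cows farthest from the median of DHCR7 and -0.0995 to 0.22 without 1 cow (-0.092 without cow 3); none passed its exact test. Centred within lanes, chosen after seeing the data, it was 0.77 and did not pass either. List medians were not run, for want of symbols. Counting error was at most 3.70% of a DHCR7 or SQLE value, and the comparisons rest on 7 cows, in lanes of 4 and 3.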
